A study of Homo sapiens with 23 samples.

Results

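Genes of the colony-stimulating factors and the IL-6 cytokine family were followed in PC-3 cells induced to express PARG. They are 10 of 21463 gene rows, chosen by name: the ligand genes CSF1, CSF2, CSF3, IL6, LIF and IL11 (6) and the receptor genes IL6R, IL6ST, LIFR and OSMR (4). The PC-3 line was established from a bone metastasis of human prostate cancer. All cells carried a lentiviral PARG cDNA, whose product degrades poly(ADP-ribose) chains, linked through a cleavable site to the fluorescent protein mClover3, behind a TetOne doxycycline-inducible promoter. Doxycycline groups received 500 ng/ml for 72 h, and untreated groups of the same cells carried the construct without the drug. Both were made for the single clones H6 and I4, in experiment N at passage 5 and in experiment B at passage 7, giving 23 wells in 8 groups of 3, with 2 for untreated H6 in experiment B. Each clone is a single line, and with no construct-free cells among these groups, effects of the drug cannot be told apart from those of PARG.

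Colony-stimulating factors drive blood cell production: CSF3 (G-CSF) acts on neutrophil precursors, CSF2 (GM-CSF) on granulocytes and macrophages, and CSF1 (M-CSF) on macrophages. IL6, LIF and IL11 are secreted cytokines that share the signalling receptor gp130, the product of IL6ST. IL6R binds IL6, while LIFR and OSMR pair with gp130 for LIF and oncostatin M. Ligand binding activates JAK kinases and STAT transcription factors, mainly STAT3, which induces the feedback inhibitor SOCS3. Cancer cells, PC-3 among them, are known to secrete several of these ligands.

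All values come from the authors' deposited table of 4 comparisons, doxycycline against none in each clone and experiment. Each comparison has the mean of whichever group is higher, in RPKM (reads per kilobase of exon, scaled to library size; the unit is not named and was read from the values), a signed fold change and a q-value, which is an adjusted p. The level of the other group was obtained here by dividing by the fold, so it is approximate. The mean level of a gene averages its higher group means over the 4 comparisons. A gene can thus reach a limit on that level through 1 group alone. Values per well were not analysed here, so no spread within a group is given, and a q-value under 0.05 stands for a change. That q-value reflects wells of 1 clone at a time. PARG, the induced gene, set the direction of the folds: in the authors' deposited table it was 2.15-fold and 1.99-fold higher with doxycycline in H6, and 1.35-fold and 1.40-fold higher in I4, in experiments N and B. Judged by the smallest nonzero levels, a library of experiment N held 30.6 to 43.2 M reads, with central estimates of 37.0 and 37.4 M, and one of experiment B 18.9 to 26.5 M, with central estimates near 22 and 23.2 M. These estimates take 3 libraries a group, and the read numbers given for single genes carry the same uncertainty. The epithelial markers KRT8, KRT18 and EPCAM were at 4.77 RPKM or more in the authors' deposited table, KRT8 and KRT18 were called higher in all 4 comparisons, and CDH1 was at most 0.394 RPKM. Of 6 leukocyte markers only CD68 reached a mean of 1 RPKM, and of 6 fibroblast markers only COL1A1 did; the T cell marker CD3E was listed at 0 in 3 comparisons in the authors' deposited table. Summed here, the listed levels of the leukocyte markers came to 26.6 and 27.7 RPKM in H6 and 18.2 and 16.4 RPKM in I4, in experiments N and B, nearly all of it CD68. Of 4 endothelial markers, KDR and PECAM1 had mean levels of 1.46 and 1.01 RPKM, while VWF and CDH5 were at most 0.0377 RPKM in the authors' deposited table. PECAM1 moved in the direction of the ligands: the authors' deposited table has it lower by 1.42-fold (q = 0.0198) and 1.56-fold (q = 0.0012) in H6, and by 1.36-fold (q = 0.0782) and 1.52-fold (q = 2.81e-06) in I4. KDR was called in no comparison, and the part of these markers in the results on the ligands was not tested.

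Most ligands fell by larger factors than any receptor did. In all 4 comparisons CSF2, CSF3, IL6 and LIF were called lower, LIFR was called higher, and the remaining 5 genes were called in some comparisons or none. All 10 genes were tested in every comparison. Over all genes tested in the 4 comparisons, 1.97% were called lower in each and 1.73% higher in each; at a mean level of at least 1 RPKM the shares were 2.65% and 2.27%. Among the 6 ligands, 5 were called lower in H6 in experiment N, 5 in I4 in experiment N, 5 in I4 in experiment B and 4 in H6 in experiment B, and none was called higher. Of all genes, 7.07% were called lower in H6 and 8.53% in I4 in experiment N, and 3.93% and 6.59% in experiment B. Among the 4 receptors, IL6ST was called lower in 3 comparisons and LIFR higher in 4, against backgrounds of 6.57% and 7.18% called higher in H6 and I4 in experiment N, and 3.63% and 7.46% in experiment B. Ligands had a median log2 fold of -1.16 in H6 and -1.45 in I4 in experiment N, and -1.50 in H6 and -1.84 in I4 in experiment B. For the receptors it was 0.07 and 0.04 in experiment N and 0.11 and 0.04 in experiment B, in the same order of clones. The median over all genes lay between 0.002 and 0.011, so the ligand medians lay far below it. The 10 genes and the gene lists used below were chosen with earlier results of these data known. Contrasts with all genes are thus descriptions and no test.

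**Figure D1:**
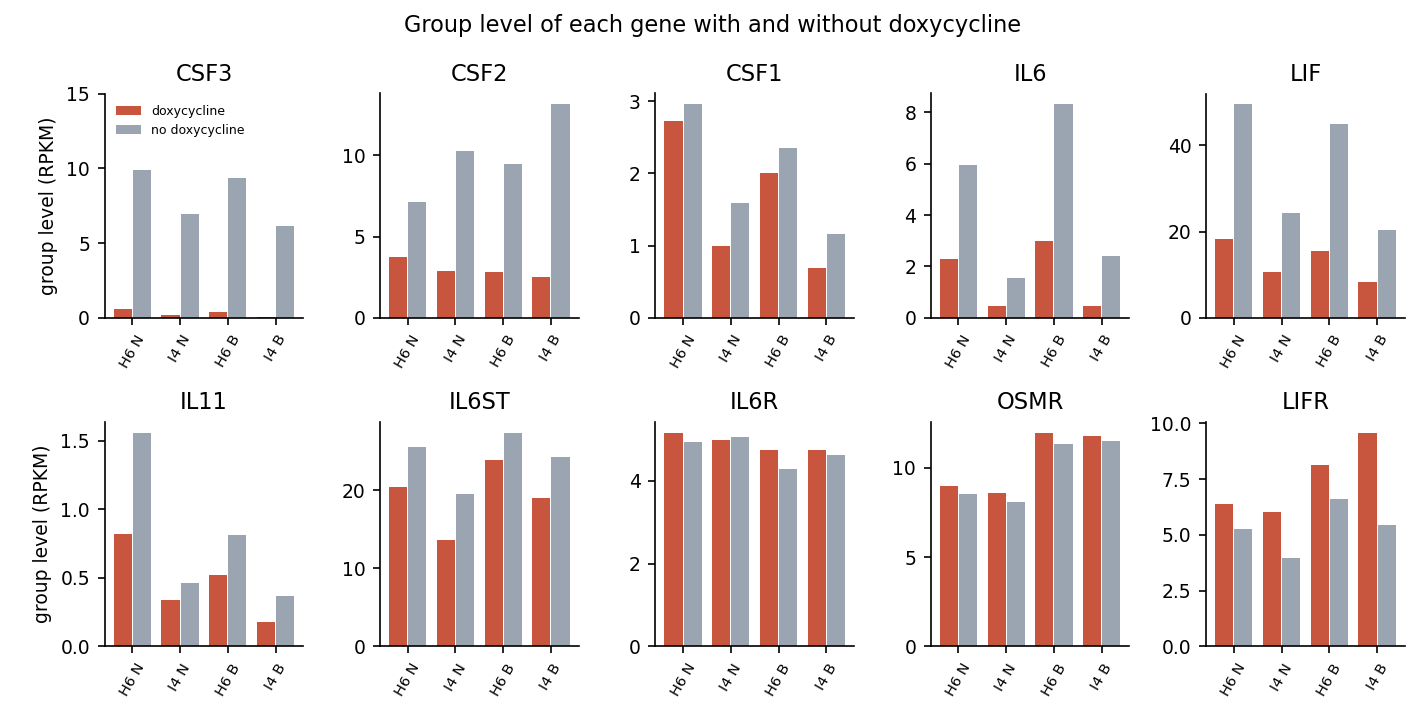
Group level (RPKM, linear axes that start at 0 and differ between genes) of the 10 genes with doxycycline (red, left bar) and without it (grey, right bar), for clones H6 and I4 in experiments N and B. The higher bar of each pair is the authors' group mean and the lower one is that mean divided by the fold. Grey bars stand above red ones for all 6 ligands, red ones above grey ones for LIFR, and IL6R and OSMR have bars of nearly equal height.

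CSF3 had the lowest fold of the 10 genes in each comparison. With doxycycline its level was about 0.600 and 0.412 RPKM in H6 and about 0.233 and 0.0764 RPKM in I4 in experiments N and B, against 9.92, 9.36, 6.97 and 6.12 RPKM without it in the authors' deposited table. Every doxycycline group lay under 1 RPKM and every untreated group above 6 RPKM. The authors' deposited table lists q as 0 for CSF3 in all 4 comparisons. CSF3 was ranked among 10752 genes of a mean level of at least 1 RPKM, a limit it passed only through its untreated groups. It had the lowest log2 fold in H6 in experiment B and in I4 in experiment N. In the other comparisons it had the second lowest. The rank is thus not among genes at that level in both groups. The level in doxycycline-treated I4 cells of experiment B rested on about 11 reads over 3 wells, so the 80.2-fold value there is imprecise; the other 3 groups had about 58 to 148 reads.

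CSF2 fell in both clones and ended at similar levels in them. With doxycycline it was at about 3.75 and 2.85 RPKM in H6 and 2.89 and 2.54 RPKM in I4, in experiments N and B. Without doxycycline the authors' deposited table has 7.14 and 9.45 RPKM in H6 and 10.3 and 13.1 RPKM in I4. Untreated levels were thus higher in I4, and the doxycycline levels of the clones lay within 1 RPKM of each other in each experiment. The fall was 1.91-fold (q = 3.98e-05) and 3.32-fold (q listed as 0) in H6, and 3.55-fold (q = 1.29e-11) and 5.17-fold (q listed as 0) in I4 in the authors' deposited table.

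CSF1 fell in I4 and was not called in H6. In I4 it was at about 1.00 and 0.698 RPKM with doxycycline, against 1.59 and 1.16 RPKM without it, a 1.59-fold (q = 3.71e-06) and a 1.66-fold fall (q = 0.000312) in the authors' deposited table. In H6 it was at about 2.72 and 2.01 RPKM with doxycycline, against 2.96 and 2.35 RPKM without it (q = 0.488 and 0.317 in the authors' deposited table). Whether the clones differ in this fold was not tested, because no spread per well enters the table.

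IL6 fell in every comparison, from untreated levels that differed more between clones than those of CSF2, CSF3 and LIF. With doxycycline IL6 was at about 2.28 and 2.99 RPKM in H6 and 0.475 and 0.453 RPKM in I4. Untreated H6 cells had 5.95 and 8.30 RPKM and untreated I4 cells 1.57 and 2.40 RPKM of IL6 in the authors' deposited table. Doxycycline-treated H6 cells therefore still held more IL6 transcript than untreated I4 cells in both experiments. The fall was 2.61-fold (q = 2.15e-13) and 2.78-fold (q listed as 0) in H6 and 3.30-fold (q = 1.37e-07) and 5.31-fold (q listed as 0) in I4 in the authors' deposited table.

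LIF, a cytokine known for keeping mouse embryonic stem cells undifferentiated, was the most abundant of the ligands per length and fell by the most even factor of the 4 ligands called throughout. With doxycycline it was at about 18.4 and 15.5 RPKM in H6 and 10.7 and 8.29 RPKM in I4. Without doxycycline the authors' deposited table has LIF at 49.5 and 44.9 RPKM in H6 and 24.3 and 20.5 RPKM in I4. The 4 folds of the authors' deposited table ran from 2.26 to 2.89, all lower, each with a q listed as 0. Of these 4 ligands, LIF is the only one with a larger fold in H6, 2.70 and 2.89, than in I4, 2.26 and 2.47, in the authors' deposited table.

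IL11, which supports platelet precursors and is also linked to fibrosis, had the lowest untreated level of the 6 ligands. It was at about 0.822 and 0.519 RPKM in H6 and 0.338 and 0.176 RPKM in I4 with doxycycline, against 1.56, 0.812, 0.461 and 0.366 RPKM without it in the authors' deposited table. All 4 folds pointed down, and 1 was called: 1.90-fold lower in H6 in experiment N (q = 0.000143) in the authors' deposited table. The 3 others were 1.37-fold, 2.07-fold and 1.56-fold lower with q of 0.482, 0.0933 and 0.210 in the authors' deposited table, and the doxycycline groups behind them held about 31 to 101 reads.

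**Figure D2:**
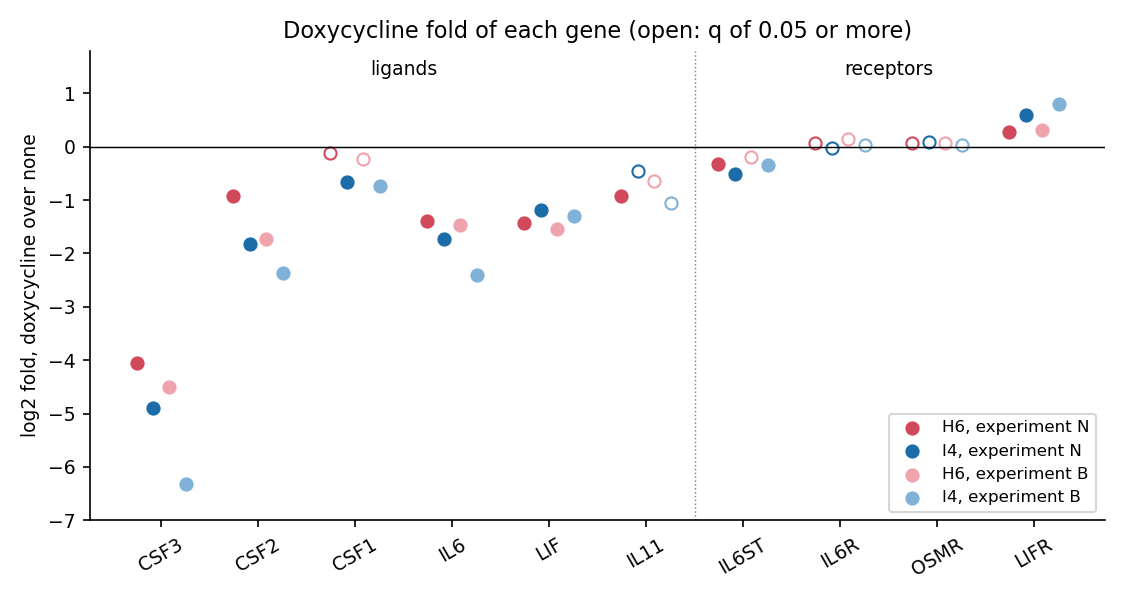
Log2 fold, doxycycline over none, of the 6 ligands (left of the dotted line) and the 4 receptors (right) in clones H6 (red shades) and I4 (blue shades), with experiment N dark and experiment B light; open points have a q of 0.05 or more. CSF3 sits between -6.33 and -4.05, the other ligands called in all 4 comparisons, CSF2, IL6 and LIF, between -2.41 and -0.93, and the receptors between -0.51 and 0.81.

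IL6ST, which encodes gp130, was the most abundant receptor per length and fell slightly. It was at about 20.5 and 23.9 RPKM in H6 and 13.7 and 19.1 RPKM in I4 with doxycycline, against 25.6, 27.4, 19.5 and 24.3 RPKM without it in the authors' deposited table. The fall was 1.25-fold in H6 (q = 6.45e-05) and 1.43-fold in I4 (q = 3.03e-12) in experiment N, and 1.27-fold in I4 in experiment B (q = 1.29e-05) in the authors' deposited table. In H6 in experiment B, where the untreated group had 2 wells, IL6ST was 1.15-fold lower and not called (q = 0.118) in the authors' deposited table.

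LIFR, the partner of gp130 for LIF, moved the opposite way to its ligand. In the authors' deposited table it was at 6.39 and 8.16 RPKM in H6 and 6.02 and 9.58 RPKM in I4 with doxycycline, against about 5.28, 6.59, 3.97 and 5.47 RPKM without it. The rise was 1.21-fold (q = 0.00186) and 1.24-fold (q = 0.00436) in H6, and 1.52-fold and 1.75-fold with a q listed as 0 in I4, in the authors' deposited table. The untreated level of LIFR was lower in I4, and with doxycycline the level of I4 was close to that of H6 in experiment N and above it in experiment B. Among 10752 genes of a mean level of at least 1 RPKM, LIFR ranked 58 from the highest in I4 in experiment B. In H6 in experiment N its log2 fold ranked 835.

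IL6R and OSMR were called in no comparison. IL6R was at 5.17 and 4.74 RPKM in H6 and about 4.99 and 4.75 RPKM in I4 with doxycycline, against about 4.94, 4.29, 5.05 and 4.64 RPKM without it in the authors' deposited table. OSMR was at 8.99 and 12.0 RPKM in H6 and 8.60 and 11.8 RPKM in I4 with doxycycline, against about 8.54, 11.3, 8.07 and 11.5 RPKM without it in the authors' deposited table. The largest fold of either gene was 1.11, for IL6R in H6 in experiment B (q = 0.564), in the authors' deposited table. Their doxycycline groups held about 2020 to 7168 reads, more than those of CSF2 or IL6, which were called.

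The clones stood in a different order for PARG and for most of the falls. PARG had the larger fold in H6, while the log2 folds of CSF1, CSF2, CSF3, IL6 and IL6ST were lower in I4 than in H6 in both experiments. The difference of log2 folds, H6 minus I4, was 0.90 and 0.64 for CSF2, 0.86 and 1.82 for CSF3, and 0.34 and 0.94 for IL6, in experiments N and B. For LIF it was -0.25 and -0.23 and for LIFR -0.33 and -0.50. Without doxycycline, H6 over I4 was 3.79 and 3.45 for IL6, 2.04 and 2.20 for LIF, and 0.694 and 0.719 for CSF2. The difference between clones was not tested for any of these genes.

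The sequences below show what surrounds the ligand transcripts that fell: a promoter window for IL6 and CSF2, and the densest stretch of AU-rich elements in the 3′ untranslated region for 4 called ligands. AU-rich elements, of which ATTTA is the core in DNA letters, are bound by proteins such as ZFP36 that shorten the life of cytokine mRNAs. Promoter windows are from RefSeq on GRCh38.p14 and run from 250 bases before to 50 after the start site, 5′ to 3′ on the gene's strand; capitals mark matches to a loose NF-kB pattern, GGGANNNNCC, on either strand.
IL6, chr7:22726950-22727249, plus strand: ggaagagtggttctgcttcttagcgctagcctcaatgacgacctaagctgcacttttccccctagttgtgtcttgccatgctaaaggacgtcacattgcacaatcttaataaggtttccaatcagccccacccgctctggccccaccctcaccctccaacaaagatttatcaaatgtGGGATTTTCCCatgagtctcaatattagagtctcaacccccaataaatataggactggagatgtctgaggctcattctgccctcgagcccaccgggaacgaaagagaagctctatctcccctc
CSF2, chr5:132073539-132073838, plus strand: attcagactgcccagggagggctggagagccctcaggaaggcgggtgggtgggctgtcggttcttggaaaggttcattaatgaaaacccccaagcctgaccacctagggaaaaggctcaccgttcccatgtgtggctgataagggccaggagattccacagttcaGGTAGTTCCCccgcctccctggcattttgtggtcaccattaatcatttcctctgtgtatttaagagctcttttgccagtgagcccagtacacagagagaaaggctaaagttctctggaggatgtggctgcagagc

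The stretches of 30 bases with the most ATTTA copies, from GENCODE v29 transcripts on GRCh38, have each copy in capitals.
CSF2, chr5:132076072-132076101, plus strand: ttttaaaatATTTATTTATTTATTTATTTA
CSF3, chr17:40016975-40017004, plus strand: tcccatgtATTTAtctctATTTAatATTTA
IL6, chr7:22731697-22731726, plus strand: ttttaattatttttaATTTAttaatATTTA
LIF, chr22:30240522-30240551, minus strand: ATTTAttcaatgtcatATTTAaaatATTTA

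In CSF2 the stretch held 5 copies that overlap by a base, in CSF3 and LIF 3 copies, and in IL6 2. Some genes outside these 4 had as many as CSF3, LIF or IL6, and none had the 5 of CSF2. The densest stretches of IL11 and of the uncalled receptor OSMR held 3 copies, those of CSF1, IL6ST and LIFR 2, and that of IL6R 1. Per kb of 3′ untranslated region CSF2 had 25.2 copies, IL6 14.0, CSF3 8.20 and IL11 5.56, against a median of 1.44 over 18229 protein-coding genes. Of those genes, 0.11% had a density at or above that of CSF2, 0.669% at or above that of IL6 and 2.80% at or above that of CSF3. LIF, which also fell in all 4 comparisons, had 2.18 copies per kb, and 38.3% of genes had a density at or above that. The receptors had long 3′ untranslated regions of 2197 to 6632 bases, and LIFR, which rose, held the most copies of the 10 genes, 29, at 4.37 per kb. Density is thus set in part by length: the region of CSF2 has 318 bases and that of IL6 429. These letters describe the transcripts, and mRNA stability was not measured.

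**Figure D3:**
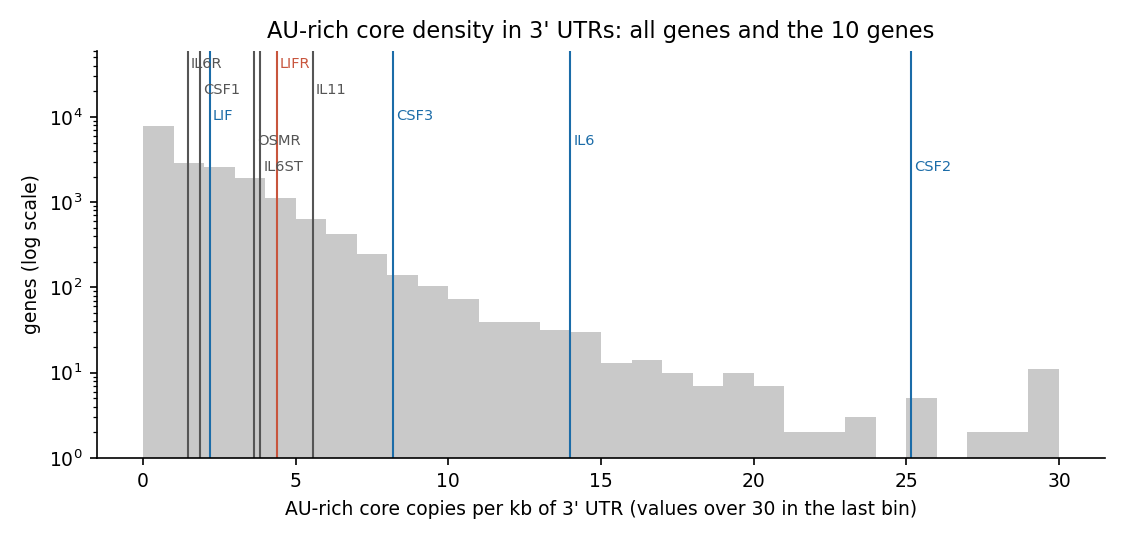
Number of protein-coding genes (grey bars, log scale) by copies of the AU-rich core ATTTA per kb of 3′ untranslated region, with the 10 genes as lines: called lower in all 4 comparisons in blue, LIFR in red, the rest in grey. CSF2, IL6 and CSF3 stand to the right of the other 7, and LIF lies among the low values beside CSF1 and IL6R.

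Of the 10 genes, 7 had at least 1 promoter window in the RefSeq table, with 9 windows in all because LIFR has 3. CSF1, CSF3 and LIF had no window there, so their promoters were not searched for any motif. The NF-kB consensus was found in the windows of IL6 and IL6ST and in 11.3% of all 35116 windows, on either strand. The looser pattern GGGANNNNCC, which overlaps the consensus, was found in 5 of the 9 windows, those of CSF2, IL6, IL6R, IL6ST and OSMR, and in 25.6% of all windows. It thus occurred in windows of called ligands and of uncalled receptors alike. The AP-1 motif TGANTCA was found in IL11, IL6R and OSMR (7.71% of all windows), and the STAT motif TTCNNNGAA in CSF2 and in 2 windows of LIFR (7.66% of all windows). A TTNCNNAA match, the C/EBP motif, was found in IL6, IL6R, LIFR and OSMR (36.8% of all windows), and TATAAA in a window of LIFR (11.5%).

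Receptors for the colony-stimulating factors were nearly silent. CSF1R, CSF2RA, CSF2RB and CSF3R, which bind CSF1, CSF2 and CSF3, reached at most 0.0534 RPKM in the authors' deposited table, and none was called in any comparison. Among 12 other ligands and ligand-like factors of these families, 3 had a mean level of at least 1 RPKM, and CRLF3, a cytokine receptor-like factor, was the only one called, 1.29-fold lower in H6 in experiment N (q = 0.0228) in the authors' deposited table. OSM, the ligand of OSMR, was at most 0.00852 RPKM in the authors' deposited table. Of 5 other receptors, IL27RA was called lower in I4, by 1.34-fold (q = 0.00241) and 1.25-fold (q = 0.0159), and IL11RA, the receptor of IL11, was 1.46-fold higher in H6 in experiment N (q = 0.0448) in the authors' deposited table.

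Downstream of the receptors, none of 11 signal transducers was called in all 4 comparisons. STAT3, STAT5A and STAT5B were at most 0.00191 RPKM in the authors' deposited table, and PC-3 cells are known to lack STAT3. They lie in a run of 13 neighbouring coding genes on chromosome 17, from 42101404 to 42522611 (GRCh38), all under 0.05 RPKM, with NAGLU on the far side at up to 2.05 RPKM. CSF3 lies on the same chromosome, from 40015361 to 40017813, outside that run. Among the 12 feedback inhibitors 1 fell in all 4 comparisons and none rose in all 4, against 1.97% and 1.73% of all genes tested. SOCS3 was that gene: the authors' deposited table has it 1.29-fold and 1.28-fold lower in H6 and 1.39-fold and 1.36-fold lower in I4, with untreated levels of 36.7, 26.0, 21.5 and 14.8 RPKM. SOCS1 was called lower in I4, by 2.12-fold (q = 2.02e-05) and 3.34-fold (q = 0.00327), and not in H6 (q = 0.510 and 0.427) in the authors' deposited table. PIAS3, an inhibitor of STAT3, was called higher in 3 comparisons of the authors' deposited table, by 1.16-fold to 1.29-fold, and was 1.14-fold higher with q = 0.183 in the other, H6 in experiment B. The authors' deposited table has PTPN2 called lower in both I4 comparisons, by 1.18-fold and 1.23-fold, SOCS2 higher in H6 in experiment N and SOCS5 higher in I4 in experiment B, each by 1.20-fold.

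Of 22 genes known to respond to gp130 or STAT3, 13 had a mean level of at least 1 RPKM and 16 were tested in every comparison. In all 4 comparisons 3 fell and 1 rose, against 1.97% and 1.73% of all genes tested. The list also holds the receptor genes IL6ST and OSMR and the nearly silent STAT3. Besides SOCS3, those that fell in the authors' deposited table were CEBPB, which binds the IL6 promoter, with folds of 1.33 to 2.46, and MYC, with folds of 1.20 to 1.40. BCL6, a transcriptional repressor, was 1.46-fold and 1.36-fold higher in H6 and 2.16-fold and 2.27-fold higher in I4 in the authors' deposited table. The median of the mean log2 folds of the 13, IL6ST and OSMR included, was -0.38, and whether signalling through gp130 changed was not tested. Of 8 genes that process or carry these receptors, none was called in all 4, against the same shares of all genes. In the authors' deposited table RHBDF1 was called higher in 3 comparisons, by 1.32-fold to 1.36-fold, and RHBDF2 lower in 3, by 1.14-fold to 1.26-fold. The sheddases ADAM10 (q = 0.0486 in I4) and ADAM17 (q = 0.0411 in H6) were called higher in experiment B only. SORT1 was called higher in both I4 comparisons, and SORL1 and CPD in I4 in experiment B.

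Among 12 genes listed for cytokine mRNA decay 3 fell in all 4 comparisons and none rose in all 4, against 1.97% and 1.73% of all genes tested. Not every gene of this list is a decay factor: TNFAIP3 is a regulator of NF-kB signalling. Falls in the authors' deposited table were 3.01-fold to 7.23-fold for ZC3H12A, whose product cleaves IL6 mRNA, 1.62-fold to 3.31-fold for TNFAIP3, which restrains NF-kB signalling, and 1.20-fold to 1.36-fold for ZC3H12C. ZFP36 lay the other way, with folds of 1.20 to 1.49 higher in the authors' deposited table, and was called in I4 in experiment N (q = 0.0308). Its relative ZFP36L2 was called higher in H6 in experiment B (q = 0.0488), and ZFP36L1 was called lower in both clones in experiment N (q = 3.14e-05 in H6 and 0.00634 in I4) in the authors' deposited table. Of 18 transcription factors and NF-kB inhibitors listed as inputs to these promoters, 6 fell in all 4 and none rose in all 4: CEBPB, ETS1, JUN, NFKBIA, NFKBIZ and REL. Of all genes tested 1.97% fell and 1.73% rose in all 4, and this list was chosen with earlier results of these data known. NFKBIA, an inhibitor of NF-kB and also its target, was 1.42-fold and 1.53-fold lower in H6 and 2.43-fold and 2.60-fold lower in I4 in the authors' deposited table. The NF-kB cofactor gene NFKBIZ was lower by factors of 2.26 to 4.39 in the authors' deposited table. The authors' deposited table has falls by factors of 1.45 to 1.62 for JUN, a subunit of AP-1, 1.31 to 1.60 for ETS1 and 1.28 to 1.66 for the NF-kB subunit REL. Of 10 genes of IL-1, TNF and related signals, IL1B fell and TNFRSF1A, a TNF receptor, rose in all 4. Over all genes tested, 1.97% fell and 1.73% rose in all 4. The authors' deposited table has IL1B lower by factors of 3.30 to 6.61 and TNFRSF1A higher by factors of 1.20 to 1.24. What part any of these genes has in the falls of the ligands was not tested.

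**Figure D4:**
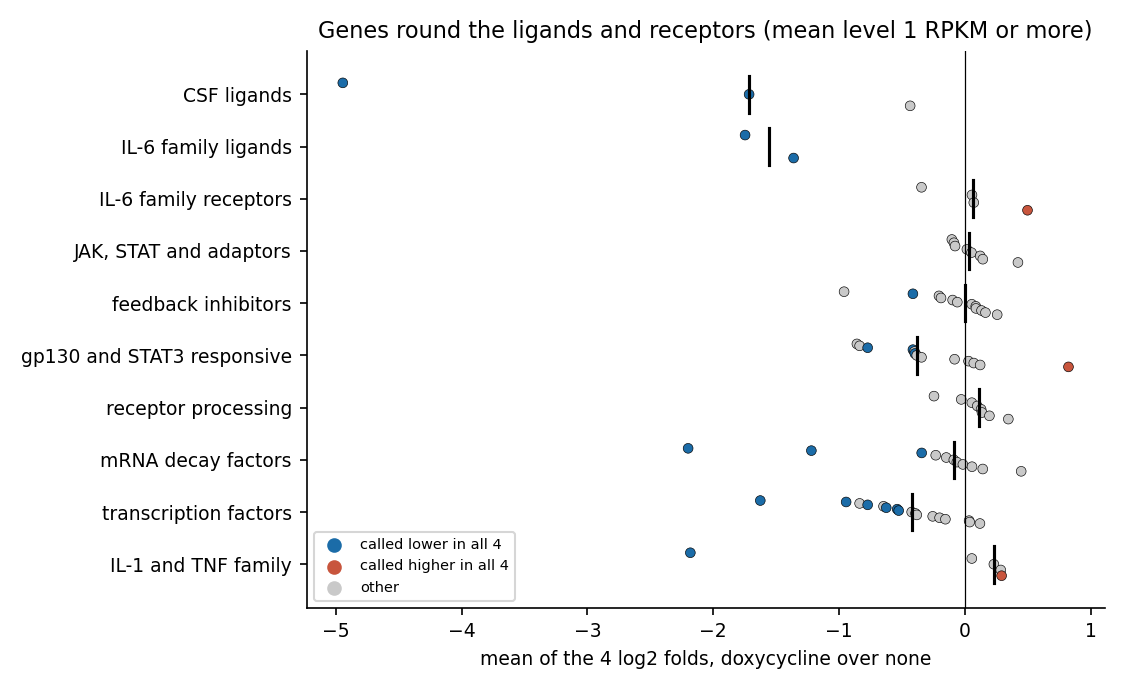
Mean of the 4 log2 folds, doxycycline over none, for genes with a mean level of at least 1 RPKM in each list (IL11, at a lower mean level, is not drawn); black bars are list medians, blue points were called lower in all 4 comparisons and red points higher. The ligand lists lie left of 0, at medians of -1.72 and -1.55, the receptor list has a median of 0.06, and the JAK, STAT and adaptor list one of 0.03 with no coloured point.

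Genes with the most similar folds were ranked by the Euclidean distance over the 4 log2 folds. The ranking covered 10735 genes of a mean level of at least 1 RPKM, which leaves out rows whose names read as dates. Nearest to IL6 was NFKBIZ at 0.41, then CSF2 at 0.53 and BCL2A1 at 0.54. Nearest to CSF2 were IL6, NFKBIZ at 0.55 and IL13RA2 at 0.67. DNER, POU2F2 and ROBO4 were nearest to LIF, at 0.42, 0.45 and 0.47. CSF3 had no close neighbour: CXCL3, CXCL1 and CXCL5 came first at 3.82, 4.09 and 4.53. For LIFR the nearest were NFATC2, SNTB1 and CPEB4, at 0.11, 0.11 and 0.12. All of these distances are over folds of the same libraries.

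The genes beside the ligands on the chromosome were not called in all 4 comparisons. Only AHCYL1, P4HA2, PSMD3, MED24 and TOMM7 among them were tested in each. The others were silent or nearly so, among them EPS8L3 beside CSF1, HORMAD2 beside LIF, and FAM71E2 and TMEM190 beside IL11. AHCYL1, on the other side of CSF1, was called in no comparison. PSMD3 and MED24 flank CSF3 on chromosome 17, and their largest fold was 1.15, for PSMD3 in I4 in experiment N (q = 0.0293), in the authors' deposited table. IL3 lies 10586 bases from CSF2 on chromosome 5 and was listed at 0 in all 4 comparisons of the authors' deposited table. P4HA2, on the other side, was called lower in I4 only, by factors of 1.29 and 1.20 in the authors' deposited table. TOMM7, beside IL6 on chromosome 7, was called higher in both clones in experiment N and lower in H6 in experiment B, with no fold above 1.30 in the authors' deposited table. OSM, beside LIF on chromosome 22, was nearly silent, as was STEAP1B, which overlaps IL6. Among the receptors, LIFR and OSMR are neighbours on chromosome 5, with 237504 bases between them; LIFR rose and OSMR was not called. RICTOR, a subunit of the mTORC2 kinase complex that overlaps the end of OSMR, rose in all 4 comparisons, by 1.24-fold and 1.38-fold in H6 and 1.30-fold and 1.44-fold in I4 in the authors' deposited table. Libraries of experiment N do not keep the strand, so reads in the overlap of OSMR and RICTOR cannot be told apart there.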

How the data were processed

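Poly(A)-selected RNA of PC-3 wells was sequenced, in experiment N from libraries of both strands and in experiment B from strand-specific libraries, per the labels' protocols. The build was hg38, per the submitters' processing notes. For aligner, counting, annotation and test: not given in the sources used here. Deposited levels are the authors' higher group means, read as RPKM from their values since the file names no unit. The deposited fold is the authors' signed ratio, or score, never between -1 and 1. The deposited q-value is the authors' adjusted p.

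The models of counts per library that were planned for could not be run on this table, so the authors' q-value under 0.05 was used. Folds were put on the log2 scale; conversion was tested on simulated data. Exon lengths and positions came from GENCODE v29 (GRCh38), matched for 21376 of 21463 rows (99.6%). Reads were estimated from level times merged exon length over the value of a single read (median of the lowest step). The 3′ untranslated region is that of the basic transcript with the longest coding sequence, if at least 50 bases. The looser NF-kB pattern was added after the windows had been read. The members and lists were chosen with earlier results of these data known. Named are all 10 members, PARG, list genes called in all 4 comparisons, those called at least once among receptors, other ligands and feedback inhibitors, the 3 nearest profiles and the chromosomal neighbours; genes of the signalling lists given as not called, GENCODE run genes and cell type markers are named beside them. ZFP36, ZFP36L1, ZFP36L2 and the called genes among the signal transducers and receptor processing genes were named after their values were seen. Python 3.11.15, pandas 2.3.3 and numpy 2.4.6 were used.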

Additional observations from a re-analysis of the deposited data

How the results depend on the processing

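Over 82 alternative values of counts, medians and background shares, 72 kept their side or size. All 80 alternatives of the single genes' mean log2 folds did too, including each comparison left out in turn. That outcome was fixed in advance, because the limit was the SD of the same 4 folds. Means over part of those folds cannot move further than that, so the 80 values are no check on the result. Part of the 72 was fixed as well, because stricter settings only remove calls and counts that began at 0 had to stay there. Moderate changes among the 82 also passed as kept, such as 6 members called lower in both I4 comparisons against 4 in all 4. A required absolute log2 fold of at least 1 left 3 ligands called lower in H6 in experiment N, against 5 without it, and 0 receptors called in either direction in any comparison, so that 0 members were called higher in all 4 and CSF2 left the ligands called lower in all 4; called changes of IL6ST and LIFR were all smaller than that. Taking only genes of at least 1 RPKM moved the median log2 fold of the ligands in I4 in experiment B to -2.37, because IL11 drops out. No paired analysis was possible because the table holds no value per well; the count models, their other normalization, the replicate left out in turn and a Bonferroni p were not run for the same reason. Depth limits CSF3 with doxycycline and IL11.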
